A study of Saccharomyces cerevisiae with 7 samples.

Results

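Loss of Fpr3 was described here by setting the library of the Δ*fpr3* strain against that of the wild-type strain BY4741, gene by gene. All genes with more than 5 counted reads in these 2 libraries together were taken, which gave 4771 of the 5110 genes in the files. The 2 libraries belong to a series of 7, of which 5 form a survey: Δ*fpr3*, Δ*sir2*, Δ*fpr4*, the double mutant Δ*fpr3*Δ*fpr4* and wild type. The other 2 libraries come from strains that also lack *TRF5* and were not used here. The single deletion strains were isogenic to BY4741, a haploid *MAT***a** laboratory strain of *Saccharomyces cerevisiae*, and came from the yeast deletion collections. The Δ*fpr3* strain lacks *FPR3* and carries *FPR4*, and wild type carries both. All cultures were grown to mid-log phase in rich YPD medium, and rRNA was depleted from total RNA before sequencing. The labels name 1 library for each genotype, so spread between cultures could not be measured, and the test used on the reads sets a pair of libraries side by side rather than the genotypes. Reads are given as counted, without scaling to depth. In bulk RNA, fewer cells that use a gene and less RNA per cell cannot be told apart.

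Fpr3 is a peptidyl-prolyl isomerase of the FKBP family, the proteins that bind the drugs FK506 and rapamycin. Such enzymes speed the turning of the peptide bond before a proline, and Fpr3 carries its isomerase domain behind an acidic, nucleoplasmin-like stretch that binds histones. It is concentrated in the nucleolus, where rRNA is made and ribosomes are assembled, and its close paralog Fpr4 has the same layout and is likewise a histone chaperone.

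The deletion was visible in the reads. *FPR3* (YML074C, chromosome XIII, 120089 to 121324 in the coordinates of the files, which use sacCer3) had 0 reads in Δ*fpr3* and 221 reads in wild type, and so was at least 73.6-fold lower when the Δ*fpr3* library was set to a floor of 3 reads. *FPR4* (YLR449W) had 256 reads in Δ*fpr3* and 239 reads in wild type, a log2 ratio of 0.10 with a 95% exact binomial interval of -0.16 to 0.36 (chi-square test, Benjamini-Hochberg adjusted p = 0.654). Both bounds of that interval are smaller than a change of 1.3-fold, so the paralog's RNA was close to its wild-type level in this library. None of the 7 genes within 10 kb of *FPR3* was called. The nearest to a call was *BET5*, a subunit of the TRAPP vesicle tethering complex, with 12 reads in Δ*fpr3* and 27 reads in wild type (chi-square test, adjusted p = 0.0798).

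Counted reads came to 1092722 in Δ*fpr3* and 1093043 in wild type, against a range of 1009336 to 1242534 over the survey, so that depth was nearly equal. Of the 5 strain markers looked at, *LEU2*, *URA3* and *MET17* had 0 reads in both libraries. The other 2, *HIS3* and *LYS2*, passed the read filter and neither was called. *HIS3*, also a marker of the BY4741 background, was thus not silent in the reads. The **a**-factor gene *MFA1* had 64 reads in Δ*fpr3* and 85 reads in wild type. Of the 8 genes that mark α cells, 2 reached the filter and none was called, and none of the 15 tested genes of meiosis and sporulation was called. The wild-type library stood apart from the other 4 of the survey: it was the highest of the 5 libraries in 30.5% of the tested genes and the lowest in 13.7%, while Δ*fpr3* was the highest in 16.5% and the lowest in 18.6%. Every ratio over wild type given here shares that library.

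A gene was called when its share of the counted reads differed between the 2 libraries by a chi-square test at an adjusted p of 0.05 and its ratio of RPKM plus 1 was at least 1.3-fold. RPKM is a gene's read number divided by its length and by the counted reads of its library. By this rule 200 genes were higher in Δ*fpr3* (4.19% of those tested) and 385 were lower (8.07%), or 12.3% in either direction. The median log2 ratio of all tested genes was -0.10, and the split of the calls turned with it: with that median set to 0, 300 genes were called higher and 214 lower. Large changes were few in either direction. At 2-fold or more, 80 genes were higher and 117 lower, and at 8-fold or more 8 were higher and 6 lower. An exact test in edgeR that assumed a coefficient of variation between cultures of 0.1 called 36 genes higher and 41 lower, and with an assumed value of 0.2 it called 9 higher and 9 lower.

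**Figure D1:**
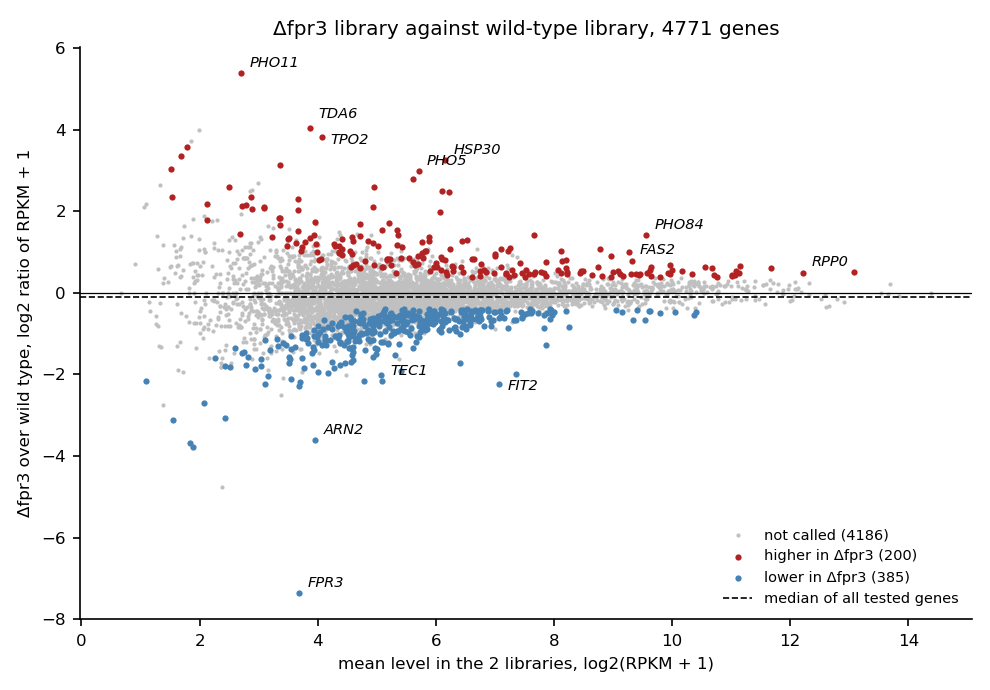
Each point is a tested gene, by its mean level in the 2 libraries in log2(RPKM + 1) on the horizontal axis and its log2 ratio, Δ*fpr3* over wild type, on the vertical axis, with called genes in red (200 higher) and blue (385 lower). The dashed line at -0.10 is the median of all 4771 tested genes, and the highest levels hold more red than blue points.

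The level and the length of a gene moved with the calls. The tested genes were put into 5 classes of near-equal size by mean level, and again by length. In the class with the highest level, 76 genes were called higher and 47 lower, with a median log2 ratio of 0.00, whereas in the class below it 40 were called higher and 109 lower. In the class of the longest genes 27 were called higher and 120 lower, with a median of -0.17, and in that of the shortest genes 33 were called higher and 33 lower, with a median of 0.00. The part of level and length in the calls was not tested. The medians of the nuclear chromosomes lay between -0.16 (VI) and -0.05 (XI), so that no whole chromosome stood away from the others, and the 18 tested genes of the mitochondrial genome had a median of 0.20.

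Genes of the phosphate response, *PHO11*, *PHO5*, *PHM6*, *PHO12* and *SPL2*, were among the 10 largest rises in Δ*fpr3*. In yeast, the transcription factor Pho4 turns on secreted phosphatases and phosphate transporters when phosphate is short, and the cyclin-dependent kinase Pho85 with its cyclin Pho80 keeps it inactive when phosphate is ample. Of the 8 tested phosphatases of this response, 5 were higher (62.5%, beside 4.19% of all genes) and none lower, with a median log2 ratio of 1.07. *PHO11*, a secreted acid phosphatase, had 63 reads in Δ*fpr3* and 0 reads in wild type, at least 21.0-fold higher at the floor of 3 reads. *PHO5*, the main acid phosphatase, had 225 reads in Δ*fpr3* and 27 reads in wild type, a log2 ratio of 2.99 (chi-square test, adjusted p = 2.84e-33). *PHO12*, a further acid phosphatase, had 250 reads in Δ*fpr3* and 43 reads in wild type. These 3 acid phosphatases were far above wild type, but *PHO11* and *PHO12* are near-identical copies. Reads that aligned to more than 1 place were dropped, so their counts rest on reads that tell the copies apart. The other mutants lay above wild type too, with 30 to 61 reads of *PHO11*, 122 to 318 of *PHO5* and 119 to 185 of *PHO12*. *PHO8*, the alkaline phosphatase of the vacuole, was higher by 0.92 on the log2 scale, and *PHM8*, a phosphatase of lysophosphatidic acid and nucleotides, by 1.22.

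Most promoters of these genes hold the letters that Pho4 is known to bind. The motif CACGTG, which reads the same on both strands, was searched in the 500 bases before the start of each gene in the R64 genome of RefSeq (the same sequence as sacCer3). It was found in 6.39% of the 5041 windows of all matched genes and in 14.1% of those of all genes called higher. Of the 15 phosphatases, transporters and polyphosphate enzymes called higher, 11 held it (73.3%). In the same way TGCACCC, a core bound by the iron-responsive factor Aft1, was searched on both strands, where it reads GGGTGCA on the other. It was found in 2.38% of all windows, in 4.9% of those of all genes called lower and in all 8 siderophore genes called lower. The phosphate and siderophore lists gather many genes that Pho4 and Aft1 are known to control, so their shares say little about the calls. Members that were not called were not counted. A match is a description of the letters and not a binding site. Stretches around the motif are shown for the called genes with the largest changes, 5′ to 3′ along the gene's strand, with the motif in capitals. *PHO11* (chrI:225147-225212, plus strand) and *PHO12* (chrVIII:551786-551851, plus strand) have the same letters throughout, *PHO5* (chrII:431169-431234, minus strand) shares those next to the motif, and *ARN2* (chrVIII:10624-10690, minus strand) has the iron motif.
PHO11: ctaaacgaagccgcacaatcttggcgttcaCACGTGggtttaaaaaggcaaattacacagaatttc
PHO12: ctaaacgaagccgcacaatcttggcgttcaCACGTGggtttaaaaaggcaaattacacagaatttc
PHO5: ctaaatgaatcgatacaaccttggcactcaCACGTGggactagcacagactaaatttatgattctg
ARN2: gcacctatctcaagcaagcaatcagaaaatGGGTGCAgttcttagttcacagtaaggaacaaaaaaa

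Phosphate transporters did not move as a single group: of 12 tested, 7 were higher (58.3%) and 2 lower (16.7%), with a median of 0.59. Over all genes 4.19% were higher and 8.07% lower. *PHO89*, the sodium-coupled high-affinity transporter, had 251 reads in Δ*fpr3* and 62 reads in wild type, a log2 ratio of 1.99. *PHO84*, the proton-coupled high-affinity transporter, had 2365 reads in Δ*fpr3* and 888 reads in wild type, a log2 ratio of 1.41. *SPL2*, a small protein that restrains low-affinity uptake, had 86 reads in Δ*fpr3* and 15 reads in wild type. Both called members that were lower encode the low-affinity transporters of the plasma membrane. *PHO87* had 56 reads in Δ*fpr3* and 148 reads in wild type (log2 ratio -1.35), and *PHO90* had 163 reads in Δ*fpr3* and 256 reads in wild type (log2 ratio -0.64). *PHO91* of the vacuole and the mitochondrial carriers *PIC2* and *MIR1* were higher, by 0.67, 1.02 and 0.55 on the log2 scale. High-affinity and low-affinity uptake thus differed in direction in this library. The other mutants also lay above wild type in *PHO84*, with 2096 to 4329 reads, *PHO89*, with 115 to 177, and *SPL2*, with 98 to 168. They had 82 to 97 reads of *PHO87*, below wild type.

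Polyphosphate genes were called in both directions as well: of 12 tested, 3 were higher (25%) and 2 lower (16.7%), with a median of 0.07. Over all genes 4.19% were higher and 8.07% lower. Of the tested subunits of the vacuolar polyphosphate polymerase, *VTC1*, *VTC3* and *VTC4* were higher, whereas *VTC2*, with 315 reads in Δ*fpr3* and 261 reads in wild type, was not called (chi-square test, adjusted p = 0.104). *VTC3* had 907 reads in Δ*fpr3* and 337 reads in wild type (log2 ratio 1.42). *VTC4*, the catalytic subunit, had 940 reads in Δ*fpr3* and 456 reads in wild type (log2 ratio 1.04). *VTC1* had 370 reads in Δ*fpr3* and 185 reads in wild type, with an interval of the log2 ratio from 0.74 to 1.26. In the other mutants *VTC3* had 714 to 1446 reads, *VTC4* 670 to 1099 and *VTC1* 328 to 396, all above wild type. The called members that were lower were *PPN1* and *PLC1*. *PPN1*, a polyphosphatase, had 98 reads in Δ*fpr3* and 158 reads in wild type. *PLC1*, the phospholipase C that feeds inositol pyrophosphate synthesis, had 28 reads in Δ*fpr3* and 72 reads in wild type. *PPX1*, *DDP1*, *KCS1* and *VIP1* of the same list were not called. Among the 13 tested regulators, 1 was higher (7.69%) and 3 lower (23.1%). *PHO81*, the inhibitor of the Pho80-Pho85 kinase and itself a Pho4 target, was higher by 0.68 on the log2 scale. *PHO4* had 14 reads in Δ*fpr3* and 37 reads in wild type (log2 ratio -1.34), and *PHO85* had 30 reads in Δ*fpr3* and 60 reads in wild type (-0.97). *PCL5*, a further Pho85 cyclin, had 44 reads in Δ*fpr3* and 90 reads in wild type (log2 ratio -1.02). These are low counts, and the interval of *PHO4* ran from -2.40 to -0.48. The assumed variation of 0.1 gave 4 calls among the phosphatases, 3 higher and 1 lower among the transporters, and none among the regulators.

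**Figure D2:**
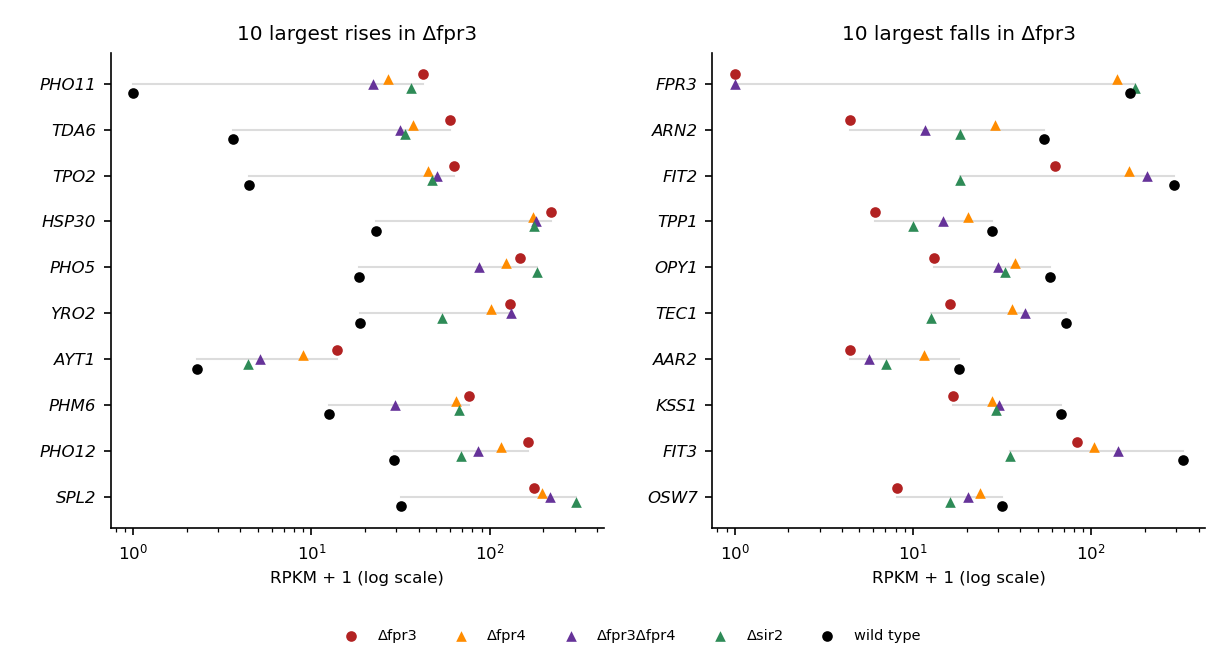
RPKM plus 1 on a log axis of the 10 genes with the largest rises (left) and the largest falls (right) in Δ*fpr3*, in the 5 survey libraries. In each rise, wild type in black was the lowest library, with 0 to 43 reads, and for *FIT2*, *TEC1* and *FIT3* the Δ*sir2* library lay below Δ*fpr3*.

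The other 5 of the 10 largest rises were *TDA6*, *AYT1* and the membrane proteins *TPO2*, *HSP30* and *YRO2*. Of 17 tested membrane proteins that respond to stress, 6 were higher (35.3%) and 1 lower (5.88%), with a median of 0.27. Over all genes 4.19% were higher and 8.07% lower. *TPO2*, a polyamine exporter, had 125 reads in Δ*fpr3* and 7 reads in wild type. *HSP30*, a stress protein of the plasma membrane, had 240 reads in Δ*fpr3* and 24 reads in wild type, and its relative *YRO2* had 145 reads in Δ*fpr3* and 20 reads in wild type. *TPO3*, a further polyamine exporter, was higher by 1.38 on the log2 scale, whereas *TPO1* was lower, with 57 reads in Δ*fpr3* and 148 reads in wild type (log2 ratio -1.35). The rises of *TPO2*, *HSP30* and *YRO2* were not confined to Δ*fpr3*. *TPO2* had 92 to 107 reads in the other 3 mutants, *HSP30* had 182 to 219, and *YRO2* had 68 to 136, all above their reads in wild type. None of the 3 was called in the direct test of Δ*fpr3* against Δ*fpr4*. *ENA1*, the sodium pump, had 20 reads in Δ*fpr3* and 1 read in wild type, with an interval of the log2 read ratio from 1.68 to 9.70. Of 36 tested heat shock proteins only *HSP30* was called, and the list median of -0.09 lay close to that of all genes. Among transporters of drugs, *PDR15*, an ABC transporter, had 52 reads in Δ*fpr3* and 133 reads in wild type (log2 ratio -1.27), and *RSB1*, which moves sphingoid bases, had 1 read in Δ*fpr3* and 17 reads in wild type (interval -9.47 to -1.41).

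Most siderophore uptake genes were lower. Siderophores are the small iron carriers that yeast takes up with the transporters Arn1 to Arn4 after the Fit mannoproteins of the cell wall have held them, and Aft1 switches these genes on when iron is short. Of 13 tested, none was higher and 8 were lower (61.5%, beside 8.07% of all genes). Their median was -0.90, beside -0.10 for all genes. *ARN2*, the transporter of triacetylfusarinine, had 7 reads in Δ*fpr3* and 108 reads in wild type, a log2 ratio of -3.61 with an interval of -5.30 to -2.86. *SIT1*, the ferrioxamine transporter, had 95 reads in Δ*fpr3* and 318 reads in wild type (log2 ratio -1.72), and *ARN1*, the ferrichrome transporter, had 46 reads in Δ*fpr3* and 135 reads in wild type (-1.51). *ENB1*, the enterobactin transporter, had 131 reads in Δ*fpr3* and 244 reads in wild type (log2 ratio -0.89). All transporters of the family were thus lower. The mannoprotein genes went the same way: *FIT2* had 31 reads in Δ*fpr3* and 147 reads in wild type (log2 ratio -2.23), *FIT3* had 55 reads in Δ*fpr3* and 219 reads in wild type (-1.98), and *FIT1* had 8 reads in Δ*fpr3* and 24 reads in wild type (-1.40). With the median of all genes set to 0, 6 genes were called lower, and 6 with the assumed variation of 0.1.

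The wider iron regulon was less affected, with 1 of 24 tested genes higher (4.17%) and 5 lower (20.8%) and a median of -0.27. Over all genes 4.19% were higher and 8.07% lower. *FET3*, the multicopper oxidase of reductive uptake, had 1069 reads in Δ*fpr3* and 1688 reads in wild type, a log2 ratio of -0.66. The regulators were lower themselves: *AFT1* had 69 reads in Δ*fpr3* and 117 reads in wild type, and *AFT2* had 29 reads in Δ*fpr3* and 68 reads in wild type. The vacuolar iron exporters *FTH1* and *SMF3* were lower by 0.56 and 0.58 on the log2 scale. *HMX1*, the heme oxygenase, was higher, with 18 reads in Δ*fpr3* and 5 reads in wild type. None of 14 tested genes of copper and zinc handling was called. Set directly against Δ*fpr4*, 5 siderophore genes were lower in Δ*fpr3* and none higher, beside 5.35% lower and 5.81% higher among all genes tested in that comparison. *ARN2* had 7 reads in Δ*fpr3* and 60 reads in Δ*fpr4*, and *FIT2* had 31 reads in Δ*fpr3* and 86 reads in Δ*fpr4*. Against the Δ*sir2* library the group lay the other way, with a median log2 ratio, Δ*fpr3* over Δ*sir2*, of 0.64. The Δ*sir2* library itself had a siderophore median of -1.49 over wild type. For the double mutant this median was -0.61, and for Δ*fpr4* it was -0.36. The list median was thus below wild type in every mutant of the survey, and lowest in Δ*sir2*.

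Genes of the pheromone and filamentation pathways were lower in part. Of 23 tested, none was higher and 7 were lower (30.4%, beside 8.07% of all genes), with a median of -0.49. *TEC1*, the transcription factor that directs Ste12 to filamentation genes, had 24 reads in Δ*fpr3* and 113 reads in wild type, a log2 ratio of -2.16 (chi-square test, adjusted p = 2.28e-12). *KSS1*, the MAP kinase of filamentation, had 19 reads in Δ*fpr3* and 81 reads in wild type, a log2 ratio of -2.02. *DIG2*, an inhibitor of Ste12, had 6 reads in Δ*fpr3* and 20 reads in wild type. The remaining calls, *GIC2*, *AGA1*, *PRM5* and *CLN3*, lay between -0.69 and -0.44. Of the haploid-specific genes, the mating MAP kinase *FUS3* had 40 reads in Δ*fpr3* and 73 reads in wild type, *STE12*, the transcription factor of mating, had 75 reads in Δ*fpr3* and 122 reads in wild type, and *FAR1*, which arrests the cycle in mating cells, had 150 reads in Δ*fpr3* and 236 reads in wild type. All 3 were called lower. With the median of all genes set to 0 4 pheromone genes were called lower, and 2 with the assumed variation of 0.1. Over Δ*sir2*, a library in which the list itself had a median of -0.98 over wild type, the list median was 0.22. The double mutant, which also lacks *FPR3*, had a list median of 0.07 over wild type, and that of Δ*fpr4* was -0.02. The fall of the list median was thus not shared by both libraries without *FPR3*. Single genes were lower there too: the double mutant had 61 reads of *TEC1* and 33 of *KSS1*.

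Most called genes of the cell cycle lists were lower as well. Of 29 tested cyclins and G1 regulators, 1 was higher (3.45%) and 6 lower (20.7%), with a median of -0.40. Over all genes 4.19% were higher and 8.07% lower. *SWI4*, the DNA-binding subunit of the G1/S factor SBF, had 41 reads in Δ*fpr3* and 96 reads in wild type (log2 ratio -1.16), and the G1 cyclin *CLN1* had 72 reads in Δ*fpr3* and 132 reads in wild type (-0.86). *CDC6*, a replication licensing factor, was the gene called higher, with 47 reads in Δ*fpr3* and 23 reads in wild type. After the median was set to 0, 3 genes were called lower. Of 53 tested kinetochore genes, none was higher and 5 were lower, with a median of -0.33. The 9.43% called lower lies near the 8.07% of all genes. *NKP1*, a non-essential kinetochore subunit, had 0 reads in Δ*fpr3* and 10 reads in wild type, at least 3.33-fold lower. *CTF3* had 24 reads in Δ*fpr3* and 53 reads in wild type, and *SGO1*, the shugoshin that guards centromeric cohesion, had 26 reads in Δ*fpr3* and 55 reads in wild type. *DAM1*, of the ring that couples kinetochores to microtubules, had 20 reads in Δ*fpr3* and 41 reads in wild type. None of the kinetochore calls passed with the assumed variation of 0.1. Reads were few throughout this list, which held 0.0964% of the counted reads of Δ*fpr3*.

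Chromatin genes were called in both directions. Of 19 tested genes of other histone chaperones, 2 were higher and 2 lower (10.5% each, beside 4.19% higher and 8.07% lower of all genes). *RTT106* had 70 reads in Δ*fpr3* and 39 reads in wild type, and *SCM3*, the chaperone of the centromeric histone, had 8 reads in Δ*fpr3* and 0 reads in wild type, at least 2.67-fold higher. *HIF1* had 12 reads in Δ*fpr3* and 42 reads in wild type, and *VPS75* had 15 reads in Δ*fpr3* and 35 reads in wild type. Among 11 tested histone genes only the linker histone *HHO1* was called, with 62 reads in Δ*fpr3* and 104 reads in wild type. Of 25 silencing and ribosomal DNA genes, none was higher and 5 were lower (20%, beside 8.07% of all genes). These were the deacetylase *HOS3*, the histone methyltransferases *SET1* and *SET2*, and the silencing proteins *SIR2* and *SIR4*. *SIR2* had 37 reads in Δ*fpr3* and 66 reads in wild type. With the median of all genes set to 0 this list gave 1 higher and 2 lower, and with the assumed variation of 0.1 it gave 1 lower. Of the 13 prolyl isomerases, *FPR3* itself, *CPR4* and *ESS1* were lower (23.1%) and none was higher. With the median set to 0 the list gave 1 higher and 1 lower.

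Part of the ribosomal protein genes were slightly higher. Of 82 tested genes of the large subunit, 16 were higher (19.5%) and none lower, with a median of 0.17. Of 57 genes of the small subunit, 6 were higher (10.5%) and none lower, with a median of 0.15. Over all genes 4.19% were higher and 8.07% lower. *RPP0*, the stalk protein P0, had 5800 reads in Δ*fpr3* and 4104 reads in wild type, a log2 ratio of 0.50. *RPL41B* was higher by 0.64 and *RPL41A* by 0.60 on the log2 scale, but these are near-identical copies. *RPS13* had 1346 reads in Δ*fpr3* and 913 reads in wild type (log2 ratio 0.56), and *RPS9A* had 161 reads in Δ*fpr3* and 66 reads in wild type (1.27). At a threshold of 1.5-fold, 2 genes were called higher in each list, and with the assumed variation of 0.1 none of the large and 1 of the small subunit. Set against Δ*sir2* rather than wild type, the medians turned to -0.20 for the large and -0.25 for the small subunit. The rise was thus not seen against every library, but the Δ*sir2* library itself lay above wild type. Its medians over wild type were 0.33 for the large and 0.39 for the small subunit. Those of the double mutant were 0.13 and 0.17, and those of Δ*fpr4* were 0.10 and 0.16. Every mutant of the survey thus had list medians above wild type.

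The factors that build ribosomes moved less against wild type. Of 63 tested genes of the small subunit processome, the particle that processes the 18S precursor, 3 were higher (4.76%) and 1 lower (1.59%). Its median was 0.09, and over all genes 4.19% were higher and 8.07% lower. *SAS10*, a processome subunit, had 56 reads in Δ*fpr3* and 27 reads in wild type, and *RRP7* had 104 reads in Δ*fpr3* and 67 reads in wild type. *NOP1*, the fibrillarin methyltransferase, had 354 reads in Δ*fpr3* and 252 reads in wild type. Of 73 assembly factors of the large subunit, 4 were higher (5.48%) and 5 lower (6.85%), with *FPR3* among the lower (median 0.10). These shares lie near those of all genes. *ARX1*, an export factor, had 510 reads in Δ*fpr3* and 355 reads in wild type, and *NSA1*, of the early pre-60S particle, had 61 reads in Δ*fpr3* and 115 reads in wild type. Of 18 genes of RNA polymerase I, 2 were higher (11.1%) and none was lower. *RPA14* had 96 reads in Δ*fpr3* and 47 reads in wild type, and *RPA43* had 160 reads in Δ*fpr3* and 113 reads in wild type.

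**Figure D3:**
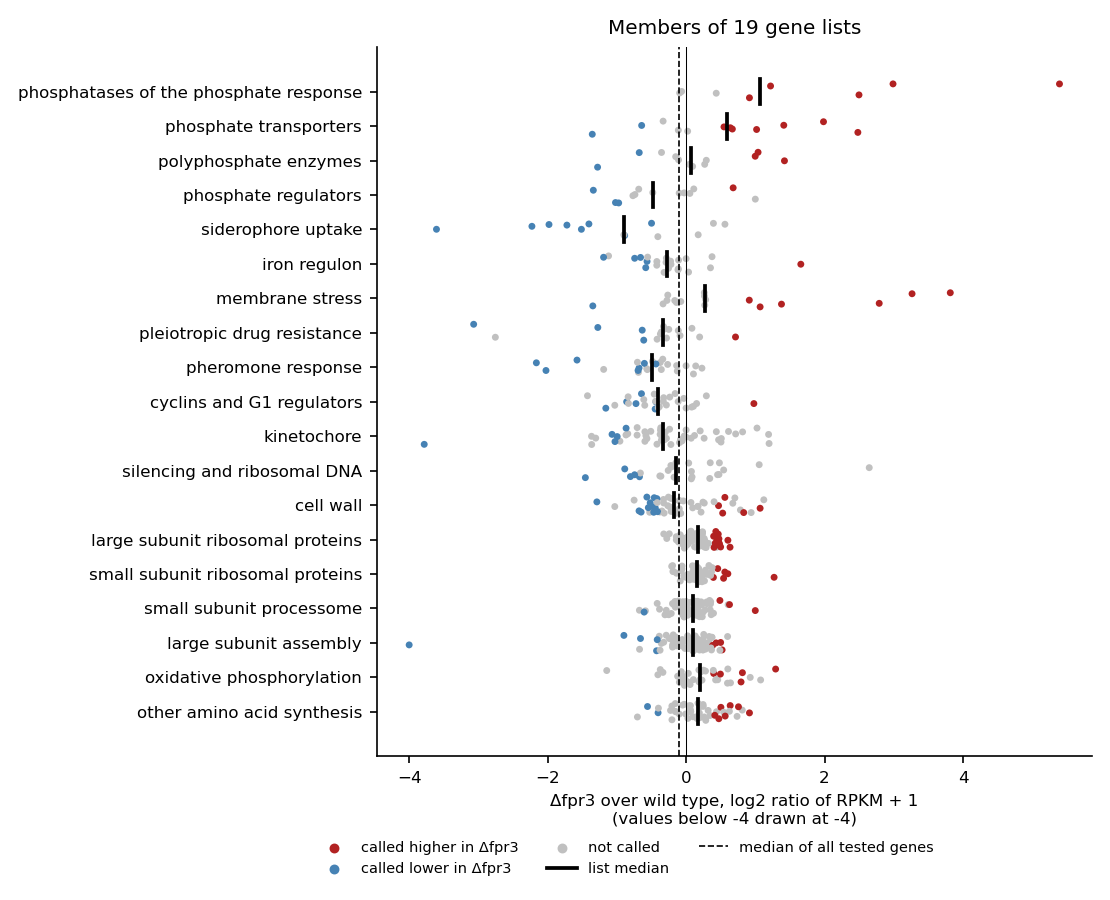
Log2 ratios, Δ*fpr3* over wild type, of the tested members of 19 gene lists, with called genes in red (higher) and blue (lower), the list median as a black bar and the median of all genes (-0.10) dashed. The phosphatases have the highest median (1.07) and siderophore uptake the lowest (-0.90) of the lists drawn.

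In metabolism, single genes rather than whole lists were called. Of 33 tested genes of phospholipids and fatty acids, 4 were higher (12.1%) and 2 lower (6.06%), with a median of -0.09. In fatty acid synthesis, *FAS2*, a subunit of the fatty acid synthase, had 5197 reads in Δ*fpr3* and 2994 reads in wild type (log2 ratio 0.79). *FAS1*, the other subunit, had 10171 reads in Δ*fpr3* and 7434 reads in wild type (0.45). *ACC1*, the acetyl-CoA carboxylase, had 4475 reads in Δ*fpr3* and 3117 reads in wild type (log2 ratio 0.52). *OLE1*, the desaturase, had 2302 reads in Δ*fpr3* and 1594 reads in wild type (log2 ratio 0.53). *CPT1* of the same list was lower, with 122 reads in Δ*fpr3* and 182 reads in wild type (log2 ratio -0.57). Of 48 tested genes of amino acid synthesis outside the arginine, branched-chain, lysine and sulfur routes, 7 were higher (14.6%) and 2 lower (4.17%). Over all genes 4.19% were higher and 8.07% lower. *GDH1*, which fixes ammonium into glutamate, had 1018 reads in Δ*fpr3* and 539 reads in wild type, a log2 ratio of 0.92. *GDH2*, which breaks glutamate down, had 111 reads in Δ*fpr3* and 165 reads in wild type. In oxidative phosphorylation, which takes in the respiratory chain and the ATP synthase, 5 of 38 genes were higher (13.2%) and none lower. Among them were the synthase subunits *ATP2* and *ATP15*. *CYC1*, cytochrome c, had 52 reads in Δ*fpr3* and 21 reads in wild type. *NDE1*, the external NADH dehydrogenase, had 681 reads in Δ*fpr3* and 392 reads in wild type. Of 15 tested genes of hexose transport and glucose sensing, 3 were higher (20%) and 2 lower (13.3%). The hexose transporter *HXT4* had 125 reads in Δ*fpr3* and 37 reads in wild type. *MIG2*, a repressor that responds to glucose, had 83 reads in Δ*fpr3* and 30 reads in wild type. The genes called lower were *HXT2*, with 1197 reads in Δ*fpr3* and 1636 reads in wild type, and *STD1*, with 73 and 115. *CAT8*, the activator of gluconeogenic genes, had 14 reads in Δ*fpr3* and 47 reads in wild type. In the cell wall list 5 of 53 were higher (9.43%) and 12 lower (22.6%), but 6 higher and 6 lower with the median set to 0. *CWP1*, a mannoprotein of that list, had 117 reads in Δ*fpr3* and 287 reads in wild type. Of 69 mitochondrial ribosomal protein genes, 1 was higher (1.45%) and 2 were lower (2.90%), both below the shares of all genes.

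The direct test of the single deletions shows where loss of Fpr3 differed from loss of Fpr4 without recourse to the wild-type library. Of 4782 genes tested, 278 were higher in Δ*fpr3* than in Δ*fpr4* (5.81%) and 256 were lower (5.35%), with a median log2 ratio of 0.00. Part of the ribosome assembly genes were higher in Δ*fpr3*. Of the 73 large subunit assembly factors, 24 were higher, *FPR4* among them, and 2 lower, *FPR3* among them, with a median of 0.43, and of the processome genes 11 were higher and none lower, with a median of 0.31. *BMS1*, the GTPase of the processome, had 204 reads in Δ*fpr3* and 116 reads in Δ*fpr4*, against 175 reads in wild type. *DRS1*, a helicase of the large subunit pathway, had 136 reads in Δ*fpr3* and 73 reads in Δ*fpr4*, against 149 reads in wild type. *RRP14* had 23 reads in Δ*fpr3* and 5 reads in Δ*fpr4*, against 20 reads in wild type. For these 3 genes Δ*fpr3* lay close to wild type and the Δ*fpr4* library was the low one. Likewise *RTF1*, a subunit of the Paf1 elongation complex, had 46 reads in Δ*fpr3* and 7 reads in Δ*fpr4*, against 29 reads in wild type.

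Storage carbohydrate and stress genes went the other way. Of 18 genes of reserve carbohydrates, 10 were lower in Δ*fpr3* than in Δ*fpr4* and none higher, with a median of -0.56. *GSY2*, the main glycogen synthase, had 111 reads in Δ*fpr3* and 275 reads in Δ*fpr4*, against 141 reads in wild type. *GPH1*, the glycogen phosphorylase, had 105 reads in Δ*fpr3* and 216 reads in Δ*fpr4*, against 60 reads in wild type, so that it was called higher than wild type and lower than Δ*fpr4*. Of the 31 listed general stress genes, those that passed the read filter in this pair gave 10 lower and none higher, with a median of -0.64. Among the lower was *HXK1*, a hexokinase, with 173 reads in Δ*fpr3* and 422 reads in Δ*fpr4*, against 197 reads in wild type. Of the 29 listed genes of glycolysis and fermentation, 1 was called higher and 8 lower. The pheromone list gave 6 lower and none higher, with *TEC1* at 24 reads in Δ*fpr3* and 59 reads in Δ*fpr4*.

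**Figure D4:**
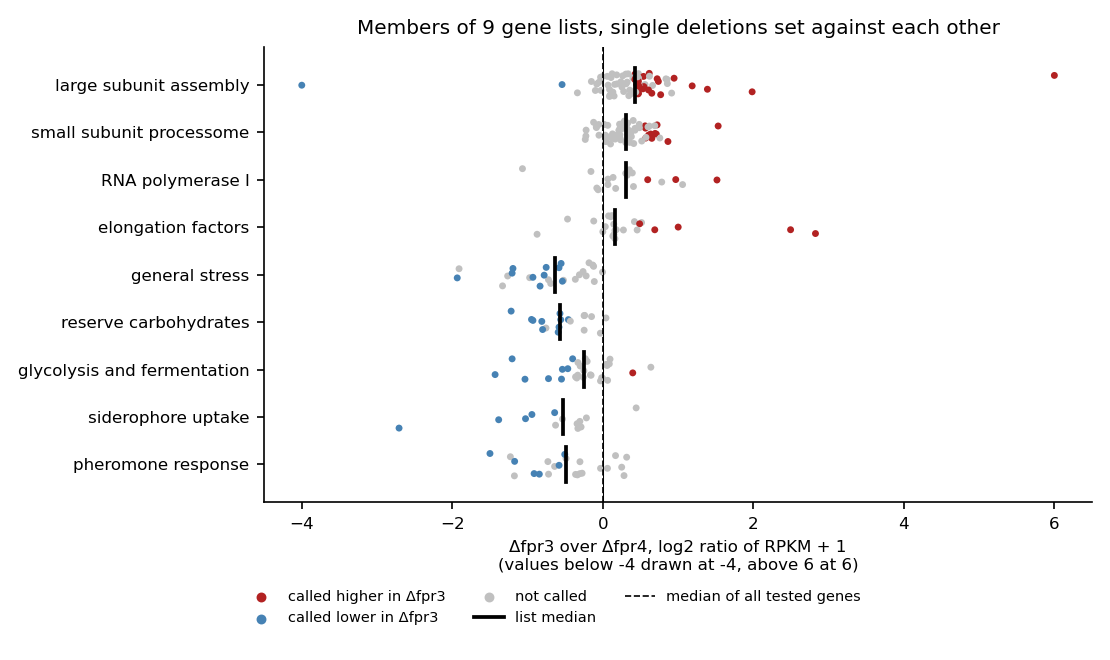
Log2 ratios, Δ*fpr3* over Δ*fpr4*, of the tested members of 9 gene lists, with called genes in red (higher in Δ*fpr3*) and blue (lower), the list median as a black bar and the median of all genes (0.00) dashed. Large subunit assembly has the highest median (0.43) and general stress the lowest (-0.64), and the points at the ends of the first row are *FPR3* and *FPR4*.

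A last set of genes was called in 1 direction against each of the 4 other survey libraries. Of 4707 genes tested in all 4 comparisons, 28 were higher in Δ*fpr3* (0.595%) and 10 were lower (0.212%). The 4 comparisons share the Δ*fpr3* library, so a value that is off in that library enters each. *RPA14*, a subunit of RNA polymerase I, had 96 reads in Δ*fpr3* and 34 to 39 reads in the mutants, with 47 reads in wild type. *ILV6*, the regulatory subunit of acetolactate synthase in branched-chain amino acid synthesis, had 652 reads in Δ*fpr3* and 313 to 376 reads in the mutants, with 308 reads in wild type. *FAS2* had 5197 reads in Δ*fpr3* and 2752 to 3222 reads in the mutants, with 2994 reads in wild type. By the rule that chose the set, Δ*fpr3* alone was high in these 3 genes, and the other libraries lay closer together. The mutants include Δ*fpr3*Δ*fpr4*, which also lacks *FPR3*. It had 34 reads of *RPA14*, 321 of *ILV6* and 2850 of *FAS2*. The rise of these 3 genes was thus not shared by both libraries without *FPR3*. *SAS10* had 56 reads in Δ*fpr3* and 18 to 29 reads in the mutants, with 27 reads in wild type. *YPS3*, a yapsin protease of the cell surface, had 215 reads in Δ*fpr3* and 89 to 108 reads in the mutants, with 120 reads in wild type. *CYS3*, an enzyme of cysteine synthesis, had 1290 reads in Δ*fpr3* and 653 to 925 reads in the mutants, with 828 reads in wild type. *LEO1*, of the Paf1 complex, had 43 reads in Δ*fpr3*, and in the mutants its reads spread from 5 to 25. Also in this set were *TDA6*, with 90 reads in Δ*fpr3* and 4 reads in wild type, and the phosphate genes *PHO89*, *PHO12*, *PHO8* and *MIR1*, of which *PHO89* had 251 reads in Δ*fpr3* and 115 to 177 reads in the mutants, with 62 reads in wild type.

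Among the genes that were lower against every library, *RSB1* and *HOS1* had few reads in all 5. *RSB1* had 1 read in Δ*fpr3* and 15 to 35 reads in the mutants, with 17 reads in wild type and an interval of the log2 read ratio over wild type from -9.47 to -1.41. *HOS1*, a histone deacetylase, had 1 read in Δ*fpr3* and 11 to 18 reads in the mutants, with 15 reads in wild type and an interval from -9.30 to -1.21. *YPK3*, the kinase of ribosomal protein S6, had 32 reads in Δ*fpr3* and 67 to 85 reads in the mutants, with 75 reads in wild type. *PLC1* had 28 reads in Δ*fpr3* and 51 to 70 reads in the mutants, with 72 reads in wild type. *SIT1* had 95 reads in Δ*fpr3* and 146 to 216 reads in the mutants, with 318 reads in wild type, and was the siderophore gene that was lower against every library. *OPY1*, *TRM5*, *CPT1*, *PDE2* and *BSC1* made up the rest, with log2 ratios over wild type between -2.16 and -0.48. At a threshold of 1.5-fold, 12 genes were higher and 7 lower against all 4 libraries, and at 2-fold 2 were higher and 4 lower.

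**Figure D5:**
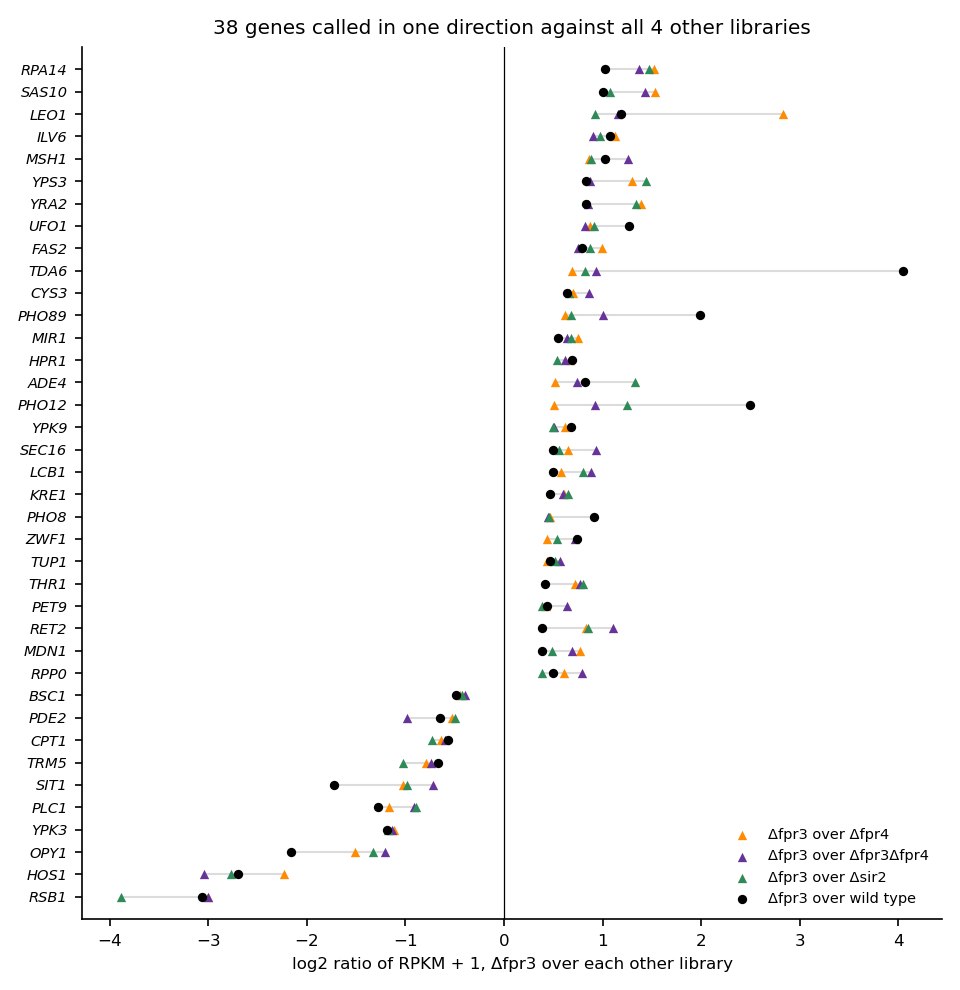
Log2 ratios of the 28 genes higher and the 10 genes lower in Δ*fpr3* than in each other survey library, over wild type (black circles) and over the 3 other mutants (coloured triangles). For *TDA6*, *PHO12* and *PHO89* the ratio over wild type lies far from the other 3, and for *ILV6*, *FAS2* and *YPK3* all 4 lie close together.

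The place of the wild-type library among the 5 survey libraries was described for the called genes. Among the 200 genes called higher, wild type was the lowest of the 5 libraries in 135 (67.5%) and Δ*fpr3* the highest in 117 (58.5%). Over all tested genes these shares were 13.7% and 16.5%. Among the 385 called lower, wild type was the highest in 311 (80.8%) and Δ*fpr3* the lowest in 195 (50.65%), beside 30.5% and 18.6% over all tested genes. Calls were chosen by the difference between these 2 libraries, which favours both as extremes. The counts therefore cannot say how much of the comparison rests on either library. When Δ*sir2* took the place of wild type as the library compared with, 401 genes were higher in Δ*fpr3* and 212 lower. Of the 585 calls, 112 (19.1%) were kept in the same direction. The Δ*sir2* strain is itself a mutant, with medians over wild type of -7.4 for **a**-specific mating genes and -1.49 for siderophore uptake. The share kept therefore cannot show how far the calls rest on the wild-type library.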

How the data were processed

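Libraries of yeast RNA without rRNA gave paired-end reads. With BWA and sacCer3, the authors aligned these, dropped low mapping qualities (threshold 5), duplicated fragments and improper pairs, and made a stranded count for each of 5110 genes. The deposited count is a whole number and is not normalized. The other deposited column, named TPM, is an RPKM: recomputed from count, length and library total, the largest deviation was 0.0979% among genes of over 20 reads. RPKM divides by the library's own total, so a few abundant genes can shift all others.

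Groups came from the labels, and the members and lists were chosen with earlier results of these data known. The chi-square test (1 degree of freedom, no continuity correction), Benjamini-Hochberg adjustment at 0.05, a fold of RPKM and a minimum of more than 5 reads follow the study's methods. The layout of the test and the pseudocount of 1 RPKM were chosen here, and ratios on the log2 scale understate the change of low genes. Each gene's log2 ratio has a 95% exact binomial interval of its reads, without a pseudocount. Intervals and the floor of 3 reads (0.000275% of the reads of either library) cover counting error only. Named genes were *FPR3*, *FPR4* and neighbours, the 10 largest rises and falls with at least 20 reads in the higher library, up to 4 called members of each of 58 lists and the 10 leading genes called against all 4 libraries. Other names were chosen after their values were seen. Alternatives were other pseudocounts, filters, fold thresholds, tests, scalings, feature sets and the Δ*sir2* library as reference. The calling step was tested on simulated data. Of 5110 genes, 5041 were found in RefSeq R64 under their systematic name, 5034 with an identical start and end. Python 3.11.15, scipy 1.17.1, R 4.3.3 and edgeR 4.0.16 were used.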

Additional observations from a re-analysis of the deposited data

How the results depend on the processing

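No paired analysis was possible because each genotype has 1 library, and no replicate could be left out. Against 585 calls (200 higher, 385 lower, 65.8% lower), a 2-fold threshold gave 197 (80 and 117, 59.4% lower), the test alone 782 (61.8% lower) and the fold alone 1901 (690 and 1211). The edgeR exact test gave 77 (36 and 41, 53.2% lower) with an assumed variation of 0.1 and 18 (9 and 9, 50.0% lower) with 0.2. The lower calls were 218 (42.1% of calls) with TMM factors, and 214 (41.6%) with median-of-ratios factors and with the median set to 0. With Δ*sir2* as reference 401 were higher and 212 lower (34.6%). Against Δ*fpr4*, 534 calls became 172 at 2-fold and 1888 by fold alone. Against all 4 libraries, 38 became 19 at 1.5-fold, 6 at 2-fold and 320 by fold alone. The list medians of large and small subunit proteins moved to 0.27 and 0.26 with TMM and with the median set to 0. With Δ*sir2* as reference they were -0.20 and -0.25, and those of siderophore uptake and pheromone response 0.64 and 0.22. The cause of these shifts was not tested. Other pseudocounts, filters, feature sets and the exact binomial test gave between 544 and 588 calls, and the 1.5-fold threshold gave 423. With a median of 49 reads per gene in Δ*fpr3* and 55 in wild type, small changes of most genes could not be seen.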

Other observations

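Other lists held calls that the comparisons above did not describe. Of 32 tested amino acid and peptide permeases, 1 was higher (3.13%) and 5 were lower (15.6%) in Δ*fpr3* than in wild type. Their median log2 ratio was -0.18, and over all genes 4.19% were higher and 8.07% lower. *PTR2*, the transporter of di- and tripeptides, had 450 reads in Δ*fpr3* and 805 reads in wild type, and *AGP2*, a plasma membrane regulator of transporters, had 37 reads in Δ*fpr3* and 99 reads in wild type. *SSY1*, the sensor of external amino acids, had 16 reads in Δ*fpr3* and 38 reads in wild type.

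Of 17 tested genes of arginine and proline metabolism, 3 were higher (17.6%) and 2 lower (11.8%), with a median of 0. *ARG5,6*, of arginine synthesis, had 61 reads in Δ*fpr3* and 29 reads in wild type. *CAR2*, the ornithine transaminase, had 247 reads in Δ*fpr3* and 127 reads in wild type, and *CAR1*, the arginase, had 152 reads in Δ*fpr3* and 92 reads in wild type. All 3 were called higher. *CPA1*, of carbamoyl phosphate synthesis, was lower, with 109 reads in Δ*fpr3* and 171 reads in wild type, as was *ARG81*, a regulator of arginine genes, with 60 reads in Δ*fpr3* and 95 reads in wild type. Of 43 tested genes of DNA replication and repair, 1 was higher and 4 were lower, with a median of -0.28. The 2.33% called higher and 9.30% called lower lie near the 4.19% and 8.07% of all genes. *RAD52*, of homologous recombination, had 42 reads in Δ*fpr3* and 81 reads in wild type.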
